A study of Mus musculus with 27 samples.

Results

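The 81 genes described here encode the proteins of the cytoplasmic ribosome in the mouse. They are the rows of 3 deposited count tables whose symbol is Rpl or Rps followed by a number, Rplp0, Rplp1, Rplp2 or Rpsa, with an optional final a, x or l after a number, a pattern that uses no expression value. They are 81 of the 27080 genes listed in these tables, 32 for the small subunit and 49 for the large subunit, and 4 of them (Rpl3l, Rpl10l, Rpl39l and Rps27l) are paralog copies of another member. The study knocked down Gas41, a YEATS domain protein of the Tip60/p400 and SRCAP chromatin complexes that is encoded by Yeats4, in J1 mouse ESCs, an ESC line grown without feeders on gelatin in medium with serum and leukemia inhibitory factor (LIF). Cells received lentivirus with a control shRNA (shNT, called shCon in the labels, 3 libraries), shGas41-1 (3 libraries) or shGas41-2 (2 libraries), were selected with puromycin, and the KD cells were harvested 8 days after infection. A second set held cells with the control shRNA that were kept undifferentiated with LIF (EB day 0, 2 libraries, numbered 2 and 3) and embryoid bodies (EBs) grown from such cells for 6 days without LIF in low-attachment wells (EB day 6, 2 libraries, also numbered 2 and 3). All 12 RNA-seq libraries thus came from 1 cell line that carried an shRNA vector, and every EB library carried the control shRNA.

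A ribosome joins a small subunit, in which the mRNA is read, to a large subunit, in which peptide bonds are made, and most ribosomal proteins are present in a single copy per ribosome. The genes are known for high mRNA levels, and many of their mRNAs begin with a short run of pyrimidines, the 5′ terminal oligopyrimidine (TOP) tract, through which mTOR and Larp1 set their translation. A few members are retained or duplicated copies with a narrower known pattern: Rpl10l and Rpl39l are best known from male germ cells, Rpl3l from heart and skeletal muscle, and Rps27l as a target of p53.

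The deposited values are whole read counts per gene, 59224537 to 81524773 per library, and levels are given here as CPM, the counts of a gene scaled to a library total of 1000000 counts. A level of 3 counts, the floor used here, came to 0.0368 to 0.0507 CPM depending on the library, which covers counting error only. Yeats4 stood at 52.1 to 63.2 CPM in shNT, 3.50 to 4.79 CPM with shGas41-1, 7.68 to 8.68 CPM with shGas41-2, and 43.6 to 50.2 CPM in the 4 libraries of the EB set, so it was lower in every KD library than in any other. Of 8 markers of undifferentiated ESCs, all 8 fell at EB day 6, 3 fell with shGas41-1 and 1 fell with shGas41-2, and their summed level was 6530 to 6993 CPM in shNT, 5642 to 6364 CPM with shGas41-1, 6121 to 6297 CPM with shGas41-2, 6272 to 6591 CPM at EB day 0 and 1310 to 1695 CPM at EB day 6. Of 10 markers of primed or differentiated EB cells, 9 rose at EB day 6 and 3 rose and 1 fell with shGas41-1 (median log2 fold change 0.81). With shGas41-2 none was called by edgeR's quasi-likelihood test (median 0.71), while 2 were higher and 2 lower at an unadjusted p under 0.05 and DESeq2 called 1 higher and 2 lower. Their sum was 29.8 to 43.5 CPM in all other libraries and 1624 to 2123 CPM at EB day 6. The part of these marker changes in the members' values was not tested. A list of 6 fibroblast markers, for cells that feeders would be, summed to at most 13.9 CPM in any library, with 1 to 3 of the 6 at or under the floor in every library of a group. The study's methods say of its experiments in general that they had biological repeats, but the labels do not say which libraries came from separate cultures, so the p-values below measure the spread between these libraries, part of which may be technical.

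Ribosomal protein genes took between 5.32% and 10.4% of all counts. Their share was 7.51%, 6.88% and 6.26% in shNT 1 to 3 (6.88% ± 0.623, SD, n = 3), 8.20%, 7.72% and 10.4% in shGas41-1 1 to 3 (8.78% ± 1.44), and 7.97% and 7.74% in shGas41-2 1 and 2 (7.85% ± 0.164, n = 2). In the EB set it was 5.32% and 5.72% at day 0 (5.52% ± 0.285, n = 2) and 6.17% and 6.66% at day 6 (6.41% ± 0.342). Every KD library lay above every shNT library, and both day 6 libraries lay above both day 0 libraries. The split between the subunits stayed within a narrow range: small-subunit genes gave 40.7% ± 0.124 of the members' counts in shNT, 41.5% ± 0.182 with shGas41-1, 41.2% ± 0.113 with shGas41-2, 41.0% ± 0.254 at EB day 0 and 41.8% ± 0.0938 at EB day 6.

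**Figure D1:**
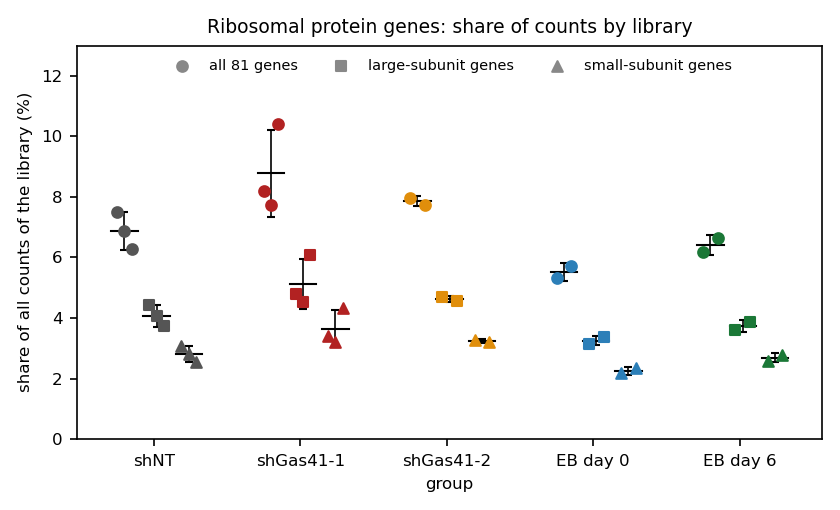
Share of all counts of a library that fell on the ribosomal protein genes (y axis, %), by group (x axis). Circles are all 81 genes, squares the large-subunit and triangles the small-subunit genes of each library, and bars give the mean ± SD; shGas41-1 3 is the highest library at 10.4% and the EB day 0 libraries are the lowest, at 5.32% and 5.72%.

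Per kilobase of coding transcript, the level of 80 members (Rpl41 was not matched to the annotation) had a median of 917 CPM per kb over the 12 libraries. The highest were Rps2, at the mRNA entry of the small subunit, with 3892 CPM per kb, Rps18, in the head of the small subunit, with 3210 CPM per kb, and Rpl7, a protein of the large subunit, with 2542 CPM per kb. The lowest were 3 of the paralog copies, with 0.374 CPM per kb for Rpl3l, 72.6 for Rpl39l and 90.2 for Rpl10l, below Rpl37 with 227. The copy Rps27l, at 241 CPM per kb, lay just above Rpl37. The length was that of a single annotated transcript per gene, and the order depends on which is used. For Rpl37 it had 867 bases, 294 of them coding. For Rps20 it had 3706 bases, 360 of them coding, which gave 313 CPM per kb and rank 73. The order of the members was much the same in each condition, with a Spearman rho over the 80 genes of 0.982 between shNT and EB day 6 and 0.982 between shNT and shGas41-1, which describes genes that share libraries, depth and mapping.

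**Figure D2:**
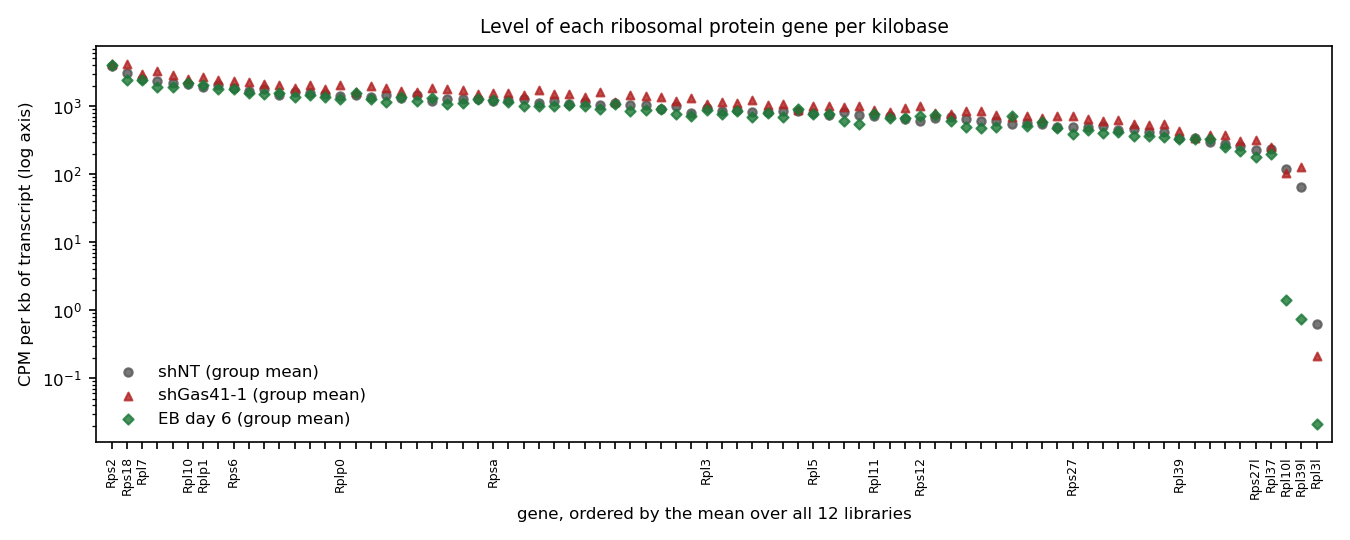
Level of each member in CPM per kilobase of transcript (log y axis), ordered by the mean over all 12 libraries (x axis), as group means of shNT, shGas41-1 and EB day 6, with names given for some genes that the text describes. Members from Rps2, at 3892 CPM per kb over all libraries, down to Rpl37, at 227, form a continuous slope in each group, and Rpl10l, Rpl39l and Rpl3l lie apart at EB day 6.

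The RefSeq promoter table (mouse build GRCm38.p6) held a transcription start for 60 of the 81 members. A pyrimidine run of at least 5 bases lay at an annotated start in 28 of them, and the median run over member starts was 4 bases. The windows below hold 10 bases before the start and 20 from it, 5′ to 3′ on the strand of the gene. Capitals mark the longest unbroken run of C and T that touches the bases from 2 before to 3 after the start, where it has at least 5 bases. Rps6, the small-subunit substrate of S6 kinase, Rpl13a, Rplp2 and Rps18 are shown as members with long runs, and the copies Rpl39l and Rpl10l beside their X-linked parents Rpl39 and Rpl10, since the largest differences described below are those of these copies.
Rps6, chr4:86857348-86857377, minus strand: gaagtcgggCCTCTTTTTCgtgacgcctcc
Rpl13a, chr7:45128726-45128755, minus strand: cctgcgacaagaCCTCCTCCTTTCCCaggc
Rplp2, chr7:141447641-141447670, plus strand: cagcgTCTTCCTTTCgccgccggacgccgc
Rps18, chr17:33955646-33955675, minus strand: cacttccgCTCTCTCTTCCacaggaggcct
Rpl39l, chr16:10170218-10170247, plus strand: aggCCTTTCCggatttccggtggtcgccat
Rpl39, chrX:37085203-37085232, minus strand: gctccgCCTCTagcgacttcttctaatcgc
Rpl10l, chr12:66284382-66284411, minus strand: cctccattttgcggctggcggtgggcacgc
Rpl10, chrX:74270806-74270835, plus strand: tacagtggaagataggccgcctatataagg

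A pyrimidine run of at least 8 bases at an annotated start was found in 21 of the 60 members (35%) and in 8.47% of 26965 other genes, and one of at least 5 bases in 28 members (46.7%) and 27.4% of other genes. The stricter form, C at the start base followed by 4 pyrimidines, was present in 13 members (21.7%) and 2.97% of other genes. In the 300 bases around the start, searched on both strands, CCGGAAG, a core of ETS factor sites, was present in 25 members (41.7%) and 9.86% of other genes, and CTTTCC in 32 (53.3%) and 29.3%. GATGGCG, a core of YY1 sites, was present in 4 members (6.67%) and 4.03% of other genes, and TATAAA lay within the 50 bases before the start in none of the 60 members and in 3.16% of other genes. A match is a run of letters and not a measured site, and annotated starts can lie some bases away from those used in these cells.

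With shGas41-1, most ribosomal protein mRNAs stood above shNT by a modest amount, and few single genes passed the test. Of the 81 members, all tested, 13 rose and 1 fell, beside 10.8% of all 18274 genes called up and 7.73% called down. Calls were made by edgeR's quasi-likelihood test at a Benjamini-Hochberg adjusted p (FDR) of at most 0.05 over all genes. The 13 are 5 of the 32 small-subunit and 8 of the 49 large-subunit genes. At a fold of 2 or more, 1 rose and 1 fell, with backgrounds of 7.9% and 2.4%. The log2 fold change was above 0 in 79 members, with a median of 0.44 and quartiles of 0.34 and 0.56, beside a median of 0.02 and quartiles of -0.29 and 0.40 over all genes tested. The median was 0.51 for the small subunit and 0.40 for the large subunit.

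The stalk proteins, which recruit the GTPases of translation to the large subunit, were all called. Rplp1 stood at 928, 969 and 885 CPM in shNT 1 to 3 and at 1309.8, 1341 and 1352 CPM in shGas41-1 1 to 3. Rplp0, the protein that anchors the stalk, stood at 2054, 1951 and 1711 CPM against 2631, 2541 and 3146 CPM. Rplp2 stood at 248, 245 and 222 CPM against 289.7, 298 and 317 CPM. In each of these genes all 3 KD libraries lay above all 3 shNT libraries. Rplp1 rose by a log2 fold change of 0.61 ± 0.12 (SE, FDR 0.0103), Rplp0 by 0.63 ± 0.15 (FDR 0.0247) and Rplp2 by 0.42 ± 0.13 (FDR 0.0490) in edgeR's quasi-likelihood test. Rpl12, which lies at the base of the stalk, stood at 1456, 1234 and 1109 CPM against 1861, 1644 and 2546 CPM and rose by 0.76 ± 0.21 (FDR 0.0358).

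Among small-subunit genes, Rps12 stood at 370.5, 302 and 258 CPM in shNT and 460.1, 388 and 684 CPM with shGas41-1, and with 0.81 ± 0.25 had the highest log2 fold change of the subunit but an FDR of 0.0524. Its groups did not overlap, and shGas41-1 3 was far above the other KD libraries. Of the 50-base windows of the Rps12 exons, 2.24% are unique in the mm9 genome, so its counts may hold reads of pseudogenes. Rps27a, which is made as a fusion with ubiquitin, had a log2 fold change of 0.66 ± 0.23 (FDR 0.0821), Rpsa, also known as the laminin receptor, 0.47 ± 0.16 (FDR 0.0711), and Rps6 0.38 ± 0.15 (FDR 0.111). None of these 3 passed the test, although in each all KD libraries lay above all shNT libraries. Rps29, a small zinc-binding protein of the same subunit, stood at 292, 302 and 267 CPM against 371, 392 and 393 CPM, and with little spread within groups it rose by 0.51 ± 0.12 (FDR 0.0232).

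Among further called members, the large-subunit genes Rpl23a, at the exit of the peptide tunnel, and Rpl36a rose by 0.61 ± 0.12 (FDR 0.0110) and 0.62 ± 0.17 (FDR 0.0342). Rpl23a stood at 369.9, 365 and 354 CPM in shNT and 526, 498 and 543 CPM with shGas41-1, with little spread within either group. The small-subunit genes Rps23, near the decoding site, and Rps27 rose by 0.56 ± 0.17 (FDR 0.0486) and 0.64 ± 0.19 (FDR 0.0449). No 50-base window of the Rps27 exons is unique, 8.26% of those of Rps23 are, and 39.7% of those of Rplp1. The counts of these 3 genes may thus hold reads of pseudogenes too.

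Other members did not pass the test, some of them at log2 fold changes near or above the members' median. Rps2, the most abundant per kilobase, stood at 3718, 3708 and 3569 CPM in shNT and 4032, 4023 and 3768 CPM with shGas41-1 (log2 fold change 0.18 ± 0.11, FDR 0.261). Rpl29, a large-subunit protein, stood at 242, 246 and 236 CPM against 235, 250.1 and 226 CPM (0.05 ± 0.11, FDR 0.777). The Rps2 libraries did not overlap but lay close together, and those of Rpl29 did overlap. Rpl5 and Rpl11, which enter the large subunit together with the 5S rRNA and are known to bind Mdm2, had log2 fold changes of 0.42 ± 0.21 (FDR 0.192) and 0.39 ± 0.16 (FDR 0.127). Rpl5 stood at 1815, 1599 and 1486 CPM in shNT and 1811, 1671 and 2685 CPM with shGas41-1, so that its groups overlapped and shGas41-1 3 carried most of the difference. Rpl22, an RNA-binding protein of the large subunit, had 0.35 ± 0.19 (FDR 0.217), Rps18 0.56 ± 0.23 (FDR 0.123), Rpl7 0.29 ± 0.17 (FDR 0.258) and Rps4x, an X-linked small-subunit gene, 0.23 ± 0.11 (FDR 0.185).

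**Figure D3:**
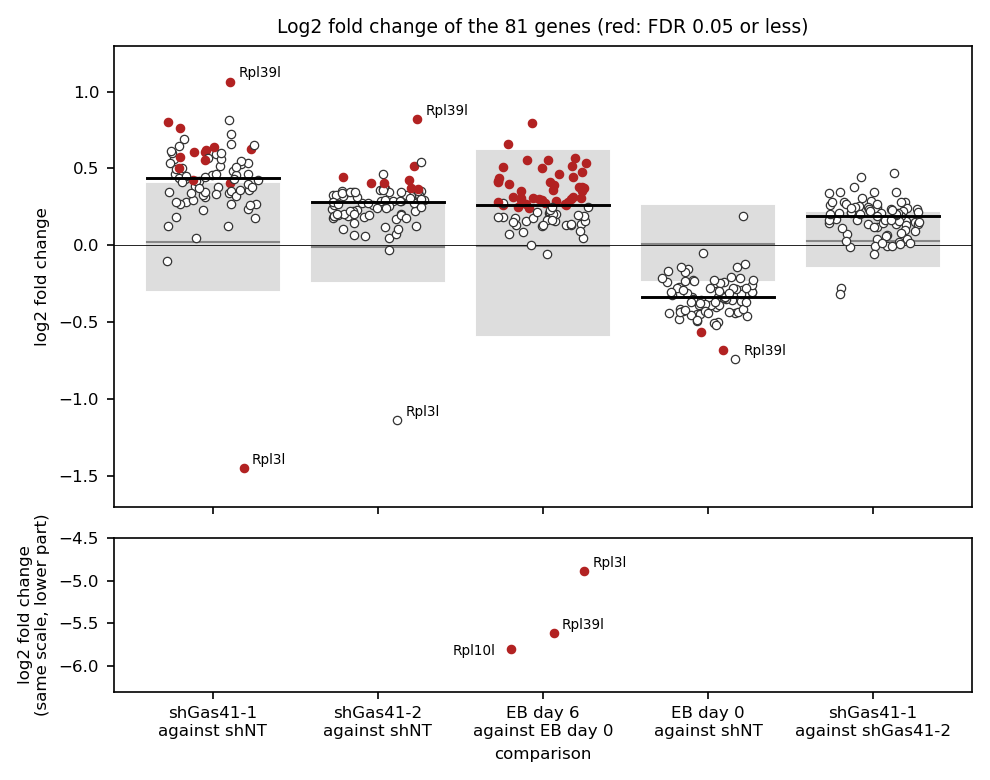
Log2 fold change of the 81 genes (y axis, the lower panel continues the same scale) in 5 comparisons (x axis). Red points passed an FDR of 0.05, black bars are the members' medians, gray boxes and lines are the quartiles and median of all genes tested; most members lie above 0 with both shRNAs and at EB day 6 (medians 0.44, 0.28 and 0.26), and below 0 in EB day 0 against shNT (median -0.34), and the point of Rpl3l at EB day 6 rests on 4 and 0 counts.

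The number of members called with shGas41-1 depended on single libraries. By edgeR's quasi-likelihood test it was 0 higher without shNT 2 (22 members had an unadjusted p under 0.05). Without shNT 3 it was 0 higher too (17 members had an unadjusted p under 0.05). It was 7 without shNT 1, 3 without shGas41-1 1, 28 without shGas41-1 2 and 15 without shGas41-1 3. DESeq2 on all libraries called 27. Calls over all genes moved too. They numbered 1971 higher with all libraries, 962 without shNT 2 and 1065 without shNT 3. They numbered 1830 without shNT 1, 1086 without shGas41-1 1, 1975 without shGas41-1 2 and 2092 without shGas41-1 3. The members' median kept its sign, from 0.23 without shGas41-1 3 to 0.57 without shGas41-1 2.

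With shGas41-2, compared with the same 3 shNT libraries, 9 of the 81 members rose and none fell, beside 5.94% of 18405 genes called up and 3.97% called down. No member passed a fold of 2 (0 higher and 0 lower in edgeR's quasi-likelihood test), where 3.96% and 0.869% of all genes did. At an unadjusted p under 0.05, 52 members were higher and 1 was lower, and DESeq2 called 23 higher and 0 lower. The median log2 fold change was 0.28 (0.30 for the small and 0.26 for the large subunit), beside -0.01 over all genes tested, with quartiles of -0.23 and 0.27. The 9 are 2 small-subunit and 7 large-subunit genes.

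Rplp1 stood at 1172 and 1209 CPM in shGas41-2 1 and 2 and rose by 0.44 ± 0.08 (FDR 0.0194). Rplp0 stood at 2436 and 2409 CPM and rose by 0.43 ± 0.10 (FDR 0.0339), and Rpl12 at 1761 and 1663 CPM and rose by 0.52 ± 0.12 (FDR 0.0344). Both libraries lay above all shNT libraries in each of these. Rplp2, with 265 and 294 CPM, had a log2 fold change of 0.31 ± 0.10 (FDR 0.0811) and did not pass. Further called members included Rps29 (0.41 ± 0.09, FDR 0.0331), Rpl23a (0.37 ± 0.08, FDR 0.0291), Rpl36a (0.37 ± 0.09, FDR 0.0439), Rpl13 (0.40 ± 0.10, FDR 0.0453) and the copy Rpl39l, described below.

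At the low end with shGas41-2, Rpl10, a large-subunit protein that joins late in assembly, stood at 1623 and 1534 CPM, within the 1529 to 1874 CPM of shNT (-0.03 ± 0.10, FDR 0.888). Rpl26, a large-subunit protein, stood at 762 and 709.7 CPM, within the 687 to 821 CPM of shNT (0.05 ± 0.10, FDR 0.777). Rps2, with 3933 and 4031 CPM, had 0.20 ± 0.08 (FDR 0.137), Rpl5 0.19 ± 0.10 (FDR 0.263), Rpl11 0.23 ± 0.09 (FDR 0.135), Rpsa 0.24 ± 0.08 (FDR 0.0926), Rps6 0.30 ± 0.09 (FDR 0.0766), Rps27a 0.28 ± 0.12 (FDR 0.184) and Rpl22 0.07 ± 0.10 (FDR 0.686). The number called higher by edgeR's quasi-likelihood test was 0 without shNT 2, 0 without shGas41-2 1 and 0 without shGas41-2 2 (23, 22 and 20 members had an unadjusted p under 0.05), and 47 without shNT 1. In the fits without a shGas41-2 library, the other one was assumed to vary like shNT. Over all genes, higher calls moved as well, from 1094 to 456 without shNT 2 and 2198 without shNT 1.

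In a fit of the shRNAs against each other that also held shNT, no difference at a member passed. No member was called in either direction by edgeR's quasi-likelihood test, as for all 19146 genes (0% up and 0% down). No member had an unadjusted p under 0.05 (1348 genes did), and DESeq2 called 0 members. The median log2 difference, shGas41-1 over shGas41-2, was 0.19 (0.03 over all genes) and was -0.0215 without shGas41-1 3. Rpl34, a large-subunit protein, had the highest difference, 0.47 with a nominal 95% interval of -0.01 to 0.95. Rpl3l had the lowest, -0.31 with an interval of -0.97 to 0.35. The intervals ran -0.06 to 0.39 for Rplp1, -0.10 to 0.51 for Rplp0, -0.07 to 0.95 for Rps12, -0.28 to 0.17 for Rps4x and -0.27 to 0.77 for Rpl39l. Differences within these bounds were thus not excluded here.

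The members of a library differed from its group as a block. Relative to the other controls, the median of the members' log2 ratios was 0.21 in shNT 1 (79 of 81 above 0), 0.02 in shNT 2 (54 above 0) and -0.25 in shNT 3 (2 above 0). Relative to the mean of shNT it was 0.28, 0.19 and 0.79 in shGas41-1 1 to 3, and 0.27 and 0.29 in shGas41-2 1 and 2. In shGas41-1 3, Rpl39l and Rps12 had the highest ratios (1.55 and 1.32), and Rpl29, Rpl10l, Rps26, Rpl4 and Rps4x had ratios of 0.06, 0.07, 0.08, 0.10 and 0.18, far under the median.

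The same libraries differed in how counts varied with gene length. Over 18119 other genes, the Spearman rho of the log2 ratio with exon length was -0.33 in shNT 1, -0.06 in shNT 2 and 0.35 in shNT 3, and -0.06, -0.00 and -0.30 in shGas41-1 1 to 3. Over 18259 other genes it was -0.15 and -0.11 in shGas41-2 1 and 2. Members have a median of 1454 exon bases, beside 3037 for all genes tested. In an alternative added after the data were seen, each library's trend on exon length and GC content was removed. The members' median was then 0.43 with shGas41-1 and 0.29 with shGas41-2, beside 0.07 and 0.02 over all genes tested. Called higher were 5 and 4 of the 81 members, beside 1754 of 18274 and 821 of 18405 genes.

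**Figure D4:**
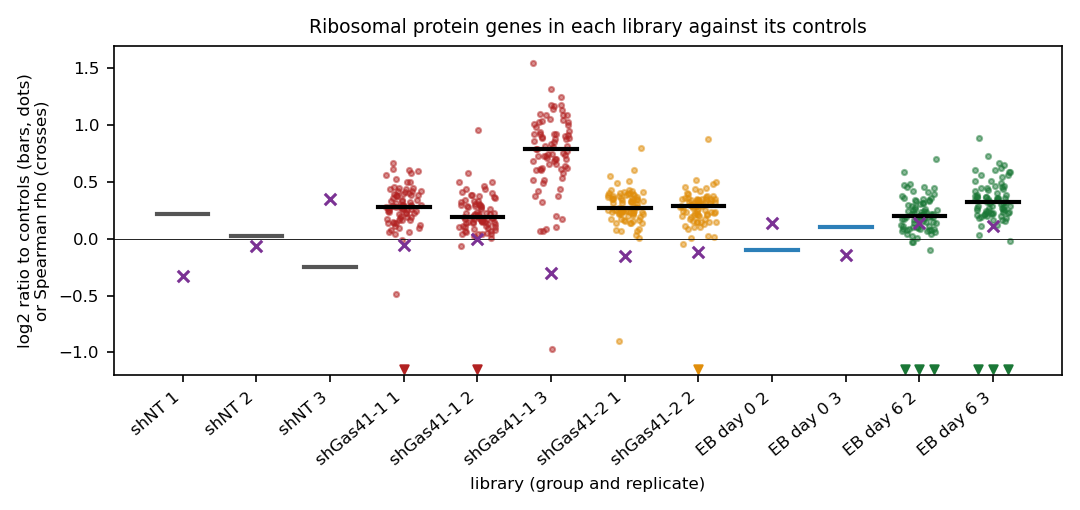
Log2 ratio of each member to its controls by library (dots; KD against the shNT mean, EB day 6 against the EB day 0 mean), the members' median (bars; for control libraries against the other controls), and the Spearman rho of the same ratio with exon length over all other genes (crosses, same axis). Triangles at the lower edge stand for 9 ratios below the axis, of Rpl3l in 3 KD libraries and of Rpl3l, Rpl10l and Rpl39l at EB day 6. Medians run from -0.25 in shNT 3 (rho 0.35) to 0.79 in shGas41-1 3 (rho -0.30). The lowest rho, -0.33, is that of shNT 1 (median 0.21). In EB day 6 2 and 3 both the rho (0.14 and 0.12) and the medians (0.20 and 0.32) are positive.

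The members were also split by features that used no count. The 21 members with a pyrimidine run of at least 8 bases at a start had a median log2 fold change of 0.42 (shGas41-1), 0.30 (shGas41-2) and 0.23 (EB day 6 against day 0), and the 39 others with a start had 0.43, 0.27 and 0.26. Members with CCGGAAG near a start (25) had 0.42, 0.26 and 0.24, and the 35 without it had 0.43, 0.29 and 0.27. By the share of 50-base exon windows that are unique in the mm9 genome, the 13 members under 50% had 0.55, 0.35 and 0.30, the 51 between 50% and 90% had 0.42, 0.27 and 0.27, and the 16 over 90%, which include Rpl3l and Rpl39l, had 0.43, 0.32 and 0.19. No test was run on these splits, which were added after the data were seen.

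At EB day 6, 43 of the 81 members were higher than at EB day 0 and 3 were lower, beside 30.5% of 18287 genes called up and 28.4% called down. No member passed a 2-fold rise in edgeR's quasi-likelihood test and 3 passed a 2-fold fall, where 16.6% and 14.7% of all genes did. At an unadjusted p under 0.05, 49 members were higher and 3 lower, and DESeq2 called 45 higher and 3 lower. The rises were small: the median log2 fold change was 0.26 for all members and 0.26 for each subunit, with quartiles of 0.16 and 0.37, beside a median of -0.00 and quartiles of -0.59 and 0.61 over all genes tested. The 43 are 17 small-subunit and 26 large-subunit genes.

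Among the members with the highest log2 fold changes were Rps12, in the beak of the small subunit, and Rps26, which contacts the mRNA near the exit of the small subunit. Rps12 stood at 239 and 251 CPM at day 0 and at 350.2 and 379 CPM at day 6 (0.66 ± 0.09, FDR 0.000931), and Rps26 at 273 and 309.7 CPM against 384 and 432 CPM (0.57 ± 0.11, FDR 0.00411). In each of these both day 6 libraries lay well above both day 0 libraries. Rplp1, with 744 and 792 CPM at day 0 and 960.1 and 1057 CPM at day 6, rose by 0.48 ± 0.10 (FDR 0.00532), and Rplp0, with 1348 and 1486 CPM against 1645 and 1827 CPM, rose by 0.38 ± 0.10 (FDR 0.0196). Rplp2 had a log2 fold change of 0.18 ± 0.09 (FDR 0.124), with 189.8 and 204 CPM against 202 and 219.7 CPM, and its groups overlapped.

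Of the 5S particle, Rpl11 rose by 0.42 ± 0.09 (FDR 0.00740) and Rpl5 by 0.31 ± 0.10 (FDR 0.0364). Rpl22 rose by 0.46 ± 0.10 (FDR 0.00605), Rpsa by 0.41 ± 0.11 (FDR 0.0161), Rps27a by 0.30 ± 0.09 (FDR 0.0225), Rps4x by 0.28 ± 0.10 (FDR 0.0485) and Rps2 by 0.40 ± 0.10 (FDR 0.0139). Rps6, with 1363 and 1479.9 CPM at day 0 and 1494 and 1623 CPM at day 6, did not pass (0.22 ± 0.10, FDR 0.0960). Other members stayed close to day 0 and did not pass: Rps29 stood at 208 and 220.2 CPM against 204 and 225 CPM (0.09 ± 0.09, FDR 0.438), and Rps27 at 126 and 137 CPM against 127 and 137 CPM (0.09 ± 0.09, FDR 0.412). The large-subunit gene Rpl24 stood at 284 and 301 CPM against 272 and 280.4 CPM, just below day 0 in CPM, with a log2 fold change after TMM scaling of 0.00 ± 0.08 (FDR 0.988).

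The members called higher at EB day 6 depended on single libraries. In each fit without 1 library, the lone library was assumed to vary like the other group. The members' median was 0.20 without EB day 0 2 and 0.32 without EB day 0 3. It was 0.32 without EB day 6 2 and 0.21 without EB day 6 3. Rpl10l, Rpl39l and Rps12 were called whichever library was left out, and Rplp0 was called in 1 of the 4 fits and Rplp1 in 2. With the trends on exon length and GC content removed, 27 members were called higher, with a median of 0.18. Over all genes tested, 5072 of 18287 were then called higher, with a median of -0.10. The rho with exon length was 0.14 and 0.12 in EB day 6 2 and 3.

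The 3 members that fell at EB day 6 were all paralog copies. Rpl10l is a single exon of 1021 bases at chr12:67384368-67385388 (mm9, minus strand), and its protein matches that of Rpl10 at 211 of 214 residues (98.6%), with 84.8% identity of the coding bases. It stood at 122, 139.6 and 97.4 CPM in shNT, 82.9, 123 and 111 CPM with shGas41-1, 119 and 138 CPM with shGas41-2, 88.3 and 82.0 CPM at EB day 0, and 1.57 and 1.32 CPM at EB day 6. Both day 6 libraries were far below all others, and the KD groups overlapped shNT. Its log2 fold change at EB day 6 was -5.79 ± 0.12 (FDR 2.18e-06), a 55.5-fold fall, and the KD values were -0.10 ± 0.20 (FDR 0.756) and 0.18 ± 0.16 (FDR 0.478). In the same libraries its parent Rpl10 rose, from 1351 and 1481 CPM to 1707 and 1802 CPM (0.39 ± 0.10, FDR 0.0119).

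Rpl39l has 3 exons at chr16:10170319-10175004 (mm9, plus strand), and its protein matches that of Rpl39, a small basic protein at the exit tunnel of the large subunit, at 48 of 51 residues (94.1%), with 85.3% identity of the coding bases. It stood at 40.6, 39.1 and 27.2 CPM in shNT, 52.2, 66.1 and 91.6 CPM with shGas41-1 and 58.5 and 60.3 CPM with shGas41-2. It stood at 25.5 and 17.4 CPM at EB day 0, and 0.533 and 0.291 CPM at EB day 6. All KD libraries lay above all shNT libraries, and the day 6 libraries lay far below the rest. With shGas41-1 it rose by 1.07 ± 0.26 (FDR 0.0229), the 1 member with a rise of over 2-fold, and with shGas41-2 by 0.82 ± 0.17 (FDR 0.0251). At EB day 6 its log2 fold change was -5.61 ± 0.33 (FDR 3.61e-05). Its call with shGas41-1 was lost without shNT 2 or without shNT 3 and kept without each other library (log2 fold change 0.76 to 1.26), and with shGas41-2 it was lost without shNT 2 or either KD library. Its parent Rpl39 stood at 225, 215 and 187 CPM in shNT and 244, 249 and 299 CPM with shGas41-1 (0.42 ± 0.15, FDR 0.0886) and rose slightly at EB day 6 (0.25 ± 0.08, FDR 0.0389).

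Rpl3l lies at chr17:24864774-24873094 (mm9, plus strand) in 10 exons, and its protein matches that of Rpl3, which reaches toward the center where peptide bonds form, at 311 of 407 aligned positions (76.4%). It was counted only 49, 50 and 72 times in shNT 1 to 3, 20, 19 and 24 times in shGas41-1 1 to 3, 34 and 25 times in shGas41-2 1 and 2, 64 and 67 times at EB day 0, and 4 and 0 times at EB day 6. All KD libraries lay below all shNT libraries. With shGas41-1 it fell (-1.45 ± 0.30, FDR 0.0140), a call that was lost without shNT 3 or shGas41-1 1 (values of -1.70 to -1.31 over the alternatives), and with shGas41-2 it had -1.14 ± 0.31 (FDR 0.0560). The fall at EB day 6 passed the test (FDR 0.00203), but not without EB day 0 3 (FDR 0.0680), and since 1 library had no count, no fold is given. Its parent Rpl3 had 0.27 ± 0.18 (FDR 0.318) with shGas41-1 and rose at EB day 6 (0.30 ± 0.09, FDR 0.0311). Every 50-base window of the Rpl3l and Rpl39l exons is unique in the mm9 genome (100%). Of the windows of their parents, 11.4% are unique for Rpl3 and 86.8% for Rpl39.

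Rps27l, at chr9:66793893-66797323 (mm9, plus strand), matches Rps27 at 81 of 84 residues (96.4%) and was not called with the other copies. It stood at 119, 99.4 and 85.1 CPM in shNT, 129, 107 and 196 CPM with shGas41-1, 121 and 109 CPM with shGas41-2, 90.4 and 90.1 CPM at EB day 0 and 80.3 and 83.4 CPM at EB day 6. The day 6 libraries lay just below the day 0 libraries (-0.06 ± 0.08, FDR 0.550, nominal 95% interval -0.20 to 0.09), and the KD groups overlapped shNT. In a bulk library, fewer cells of a type and less RNA per cell cannot be told apart. At EB day 6 the ESC markers fell along with Rpl10l, Rpl39l and Rpl3l, and the part of the marker fall in these copies' values was not tested. With shGas41-1, 3 of the 8 ESC markers fell, as did Rpl3l, while Rpl39l rose and Rpl10l was not called.

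**Figure D5:**
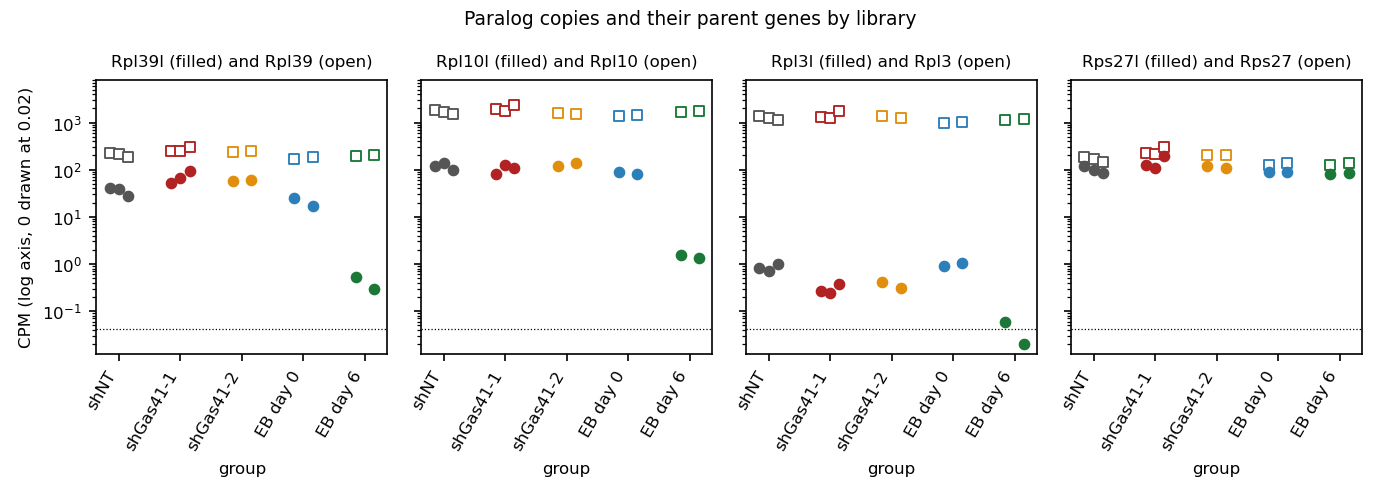
CPM of the 4 paralog copies (filled circles) and their parents (open squares) in each library (log y axis, a count of 0 drawn at 0.02) by group (x axis), with a dotted line at the level of 3 counts. At EB day 6 Rpl39l, Rpl10l and Rpl3l reach at most 0.533, 1.57 and 0.0592 CPM while their parents stay between 198 and 1802 CPM.

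The response at EB day 6 and that to shGas41-1 could be compared since each had its own controls. The difference between them, fitted over all 12 libraries, was called for 5 members, 2 higher and 3 lower at EB day 6, beside 22.4% and 22.7% of 19613 genes. Among these it was 0.48 ± 0.15 for Rps26 (FDR 0.0215), and -6.64 for Rpl39l and -5.65 for Rpl10l. It was also below 0 for Rpl3l (FDR 0.00384), where no size is given because of the counts of 4 and 0 at EB day 6. For the other 76 members the difference did not pass, among them Rpl29 (0.35 ± 0.14, FDR 0.0566). The median difference was -0.14, and without shGas41-1 3 it was 0.0474. The higher calls numbered 0 without any 1 of shNT 1, shNT 2, EB day 0 2 or EB day 6 3 (9, 6, 4 and 5 members then had an unadjusted p under 0.05 in edgeR's quasi-likelihood test), 1 without shGas41-1 1 and 5 without shGas41-1 3. The lower calls numbered 5 without shGas41-1 2.

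The control sets themselves were not at the same level. EB day 0 and shNT are both undifferentiated J1 ESCs with a control shRNA, yet 80 of the 81 members had a log2 fold change below 0 in EB day 0 against shNT, with a median of -0.34, beside 0.01 over all genes tested. In the same comparison the 80 mitochondrial ribosomal protein genes were also all below 0 (median -0.31), as were the 7 ribosomal proteins and copies outside the name pattern (median -0.41). Of the members 2 were called lower and none higher by edgeR's quasi-likelihood test, beside 0.667% and 1.7% of 18134 genes. They were Rpl38, a large-subunit protein (-0.57 ± 0.11, FDR 0.0446), and Rpl41, a very short peptide between the subunits (-0.68 ± 0.13, FDR 0.0431). Rpl41 stood at 1633, 1473 and 1216 CPM in shNT and 883 and 923 CPM at EB day 0, and Rpl38 at 98.5, 90.1 and 79.3 CPM against 59.8 and 61.6 CPM. Rpl39l had a lower value still but more spread (-0.74 ± 0.21, FDR 0.0878), and at the other end stood Rpl30 (-0.05 ± 0.11, FDR 0.818), Rpl4 (-0.12 ± 0.10, FDR 0.474) and Rpl3l (0.19 ± 0.28, FDR 0.717). At an unadjusted p under 0.05, 66 members were lower and 0 were higher, and DESeq2 called 35 lower and 0 higher. The lower calls numbered 7 without shNT 1, 58 without shNT 3, and 0 without shNT 2, EB day 0 2 or EB day 0 3 (35, 22 and 54 members then had an unadjusted p under 0.05). Over all genes, lower calls moved as well, from 121 to 390 without shNT 1, 1627 without shNT 3 and 0 without shNT 2. Experiment, culture time and sequencing cannot be told apart in this comparison, so levels at EB day 6 were not set against shNT in a test.

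Other genes of ribosomes and translation were compared with the shRNAs and at EB day 6. Of 80 mitochondrial ribosomal protein genes, which serve the separate ribosome of mitochondria, 3 rose and 4 fell with shGas41-1 (median 0.02). With shGas41-2, 3 rose and 2 fell (median -0.03), and at EB day 6, 3 rose and 44 fell (median -0.30). Of all genes, 10.8% rose and 7.73% fell with shGas41-1, 5.94% and 3.97% with shGas41-2, and 30.5% and 28.4% at EB day 6. Mrps26 and Mrpl13 had the highest values with shGas41-1 (1.47 and 1.41), and Mrpl48 and Mrpl24 the lowest at EB day 6 (-1.20 and -1.16). Of 40 genes of ribosome biogenesis, none was called with either shRNA by edgeR's quasi-likelihood test (medians 0.03 and 0.05). At an unadjusted p under 0.05, 4 of them differed with shGas41-1 and 8 with shGas41-2, and DESeq2 called 1 higher and 1 lower with shGas41-1 and 1 higher with shGas41-2. Of these genes, 20 fell and 3 rose at EB day 6 (median -0.27), beside 28.4% and 30.5% of all genes. The lowest were Rrp9, a protein of the U3 snoRNP (-1.0), and Ubtf, a factor of rRNA gene transcription (-0.68), and the highest Gar1, of the pseudouridylation complex (0.43), and Npm1, a nucleolar chaperone (0.30). The median member thus had at EB day 6 a positive log2 fold change where the medians of the mitochondrial ribosomal protein and biogenesis genes were negative.

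Of 17 other genes whose mRNAs are known TOP mRNAs, mostly translation factors, 2 rose with shGas41-1 (median 0.16), a share near the 10.8% of all genes called up. None was called with shGas41-2 by edgeR's quasi-likelihood test (median 0.10), while 3 were higher at an unadjusted p under 0.05 and DESeq2 called 2. In the EB comparison 9 rose (median 0.30) and 0 fell, also at an unadjusted p under 0.05 (0) and in DESeq2 (0). Of all genes, 30.5% rose and 28.4% fell there. Eef1b2, a subunit of the elongation factor 1 complex, rose by 0.86 ± 0.19 with shGas41-1 (FDR 0.0179), and Tpt1 by 0.70 ± 0.17 (FDR 0.0272). Eef2, which moves the ribosome along the mRNA, rose by 1.05 ± 0.09 at EB day 6 (FDR 0.000189).

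Of 7 ribosomal proteins and copies with names outside the pattern, 0 were called with shGas41-1 by edgeR's quasi-likelihood test (median 0.34), while 3 were higher at an unadjusted p under 0.05 and DESeq2 called 2. Fau (0.46) and Gnb2l1 (0.46), which encode core proteins of the ribosome, were among those not called. At EB day 6, Fau rose (0.48 ± 0.09, FDR 0.00416), as did the copy Rpl22l1 (0.96 ± 0.08, FDR 0.000162), while Rps4y2 (-0.84), Rpl7l1 (-0.55) and Rpl36al (-0.31) fell. Rpl22l1 also rose with shGas41-2 (0.49 ± 0.11, FDR 0.0354) and had 0.72 ± 0.24 with shGas41-1 (FDR 0.0696). Among 11 growth regulators, Myc rose with shGas41-2 (0.51 ± 0.10, FDR 0.0215). None of the 11 was called with shGas41-1 by edgeR's quasi-likelihood test, none at an unadjusted p under 0.05 and none by DESeq2. In the EB comparison 1 rose, Larp1, which binds TOP mRNAs (0.79), and 4 fell, among them Mdm2, the ligase of p53 (-1.07), and Eif4ebp1, an mTOR substrate (-0.73). Of all genes, 30.5% were called up and 28.4% down in that comparison.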

How the data were processed

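RNA-seq of 12 libraries was used, and the ChIP-seq libraries of the series were not analysed here. The authors mapped reads of a poly-A kit that does not keep strand to mm9 with TopHat2 (2.0.10 in the submitters' processing notes), and htseq-count gave counts per Ensembl gene. The deposited counts are raw, and the deposited log2 fold changes, p-values and FDR of the authors' own edgeR comparisons were not used. Columns named ESC in the EB table were read as EB day 0. How reads with several matches were treated is not given in the sources used here.

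Counts were tested in R 4.3.3 with edgeR 4.0.16 (filterByExpr with minimum count 10 and minimum total 15, TMM, glmQLFit and glmQLFTest, Benjamini-Hochberg adjustment over all genes tested). Each comparison was fitted on its own groups, the shRNA difference with shNT added and the difference of responses on all 12 libraries. Intervals are the log2 fold change ± 1.96 SE. Libraries held 59224537 to 81524773 counts. Alternatives, with DESeq2 1.42.0 among them, are given in the closing section. Transcripts, positions, identities and unique 50-base windows came from GENCODE on the mm9 genome (80 of 81 members matched) and start sequences from RefSeq. The members and lists were chosen with earlier results of these data known.

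Named genes were the stalk, the 5S particle, Rpsa, Rps6, Rps27a, Rpl22, the copies and their parents, the 3 highest and 3 lowest members per kilobase and by log2 fold change in each comparison, members called at 2-fold, and the 2 highest and 2 lowest genes of each list. Rpl13, Rpl13a, Rpl23a, Rpl24, Rpl36a, Rpl37, Rps23 and Rps29 were chosen after their values were seen, and of the lists only the extremes of some comparisons are named. Some genes that the rule would name are not reported here.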

Additional observations from a re-analysis of the deposited data

How the results depend on the processing

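The members' median log2 fold change kept its sign under each alternative, at 0.23 to 0.57 (shGas41-1), 0.20 to 0.35 (shGas41-2), 0.17 to 0.32 (EB day 6) and -0.43 to -0.26 in EB day 0 against shNT. With 1 library left out, the median between the shRNAs ranged from -0.0215 to 0.30 and that of the EB against the shGas41-1 response from -0.28 to 0.0474, and both turned their sign only without shGas41-1 3. Counts of called members moved more, and the cause was not tested. Members called higher, 13 for shGas41-1, 9 for shGas41-2 and 43 for EB day 6, became 9, 2 and 26 with scaling by library size alone, 27, 23 and 45 with DESeq2, 18, 15 and 43 with no filter on low counts, 39, 2 and 19 in a single fit over the 12 libraries, 5, 4 and 27 with the trends on exon length and GC content removed, an alternative chosen after seeing the data, and 1, 0 and 0 at a fold of 2. Over all genes, higher calls numbered 1971, 1094 and 5584 in the main fits. They were 1734, 961 and 4979 with library size alone and 2462, 1520 and 5307 with DESeq2. With no filter they were 2113, 1332 and 5526, and in the single fit 2745, 1005 and 4912. With the trends removed they were 1754, 821 and 5072, and at a fold of 2 they were 1444, 728 and 3030. The fits with no filter and over the 12 libraries tested more genes. Members called lower with shGas41-2 (0) became 1 with library size alone, 1 with no filter and 1 with the block below. Members called lower in EB day 0 against shNT (2) became 35 with DESeq2 and 17 with no filter. They became 0 in a single fit, 0 with the trends removed and 0 at a fold of 2. Over all genes, the 121 lower calls of that comparison became 928, 348, 12, 9 and 22 in the same order. Without the paralog copies, lower calls were 0 with shGas41-1, 0 at EB day 6 and 0 for the EB against the shGas41-1 response, whose higher calls were 0 at a fold of 2.

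With each library left out in turn, higher calls ranged from 0 to 28 for shGas41-1, 0 to 47 for shGas41-2, 3 to 43 at EB day 6 and 0 to 5 for the EB against the shGas41-1 response. Lower calls ranged from 0 to 1, 0 to 1 and 2 to 3 in the first 3, 3 to 5 in the last, and 0 to 58 in EB day 0 against shNT. Over all genes, higher calls with shGas41-1 ranged from 962 to 2092 in these fits.

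With the replicate number as a block, higher calls were 0 (shGas41-1), 62 (shGas41-2) and 66 (EB day 6). Over all genes they numbered 1107, 3536 and 5694 with the block, beside 1971, 1094 and 5584 without it. Deviations of same-numbered libraries correlated at 0.01, 0.14 and -0.39 with shGas41-1, 0.34 and 0.24 with shGas41-2, and 0.05 in the EB set. With shGas41-2, pairs of different numbers correlated at -0.34 to 0.18. In a group of 2 libraries the deviations mirror each other, so these values cannot decide whether same-numbered libraries were paired. The labels give only the number, and the main fits used no block.

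Groups of 2 or 3 libraries limit the precision, and Rpl3l is limited by depth as well, with at most 72 counts in a library.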

Other observations

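The tables list 153 rows for ribosomal protein pseudogenes, of which 117 were tested in each knockdown comparison and 115 in the EB comparison. Their log2 fold change had a median of 0.42 with shGas41-1 (6 higher, 0 lower by edgeR's quasi-likelihood test, 50 higher and 0 lower at an unadjusted p under 0.05, 21 and 0 by DESeq2), 0.24 with shGas41-2 (2 higher, 0 lower, 38 and 0 at an unadjusted p under 0.05, 9 and 0 by DESeq2) and 0.28 at EB day 6 (53 higher, 1 lower). Of all genes, 10.8%, 5.94% and 30.5% were called higher in these comparisons, so with the shRNAs the rows' share of calls lay below that of all genes, while their medians were above those of all genes (0.02 and -0.01). They took 1.39% to 2.46% of all counts in a library, beside 5.32% to 10.4% for the 81 members. Of the members' exon sequence in 50-base windows, a median of 76.2% was found once in the mm9 genome, under 50% in 13 members and over 90% in 16, so reads of a member and of its pseudogenes could not be told apart everywhere.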
